A study of Mus musculus with 4 samples.

Results

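The vacuolar ATPase, the proton pump of lysosomes and endosomes, was followed in the livers of starved and control mice through 10 genes: the V0 subunits Atp6v0b, Atp6v0d1 and Atp6v0e, the V1 subunits Atp6v1a, Atp6v1b2, Atp6v1c1, Atp6v1d, Atp6v1e1 and Atp6v1h, and the accessory subunit Atp6ap1. They were found by gene symbol in the platform annotation and are read by 21 of the 22626 probe sets tested, 5 for V0, 15 for V1 and 1 for Atp6ap1. The livers came from wild-type mice of C57/BL6 background, all 1 month old, of which 2 were starved for 24 h and 2 served as controls. The labels call the mice of each group biological replicates and give neither their sex nor the feeding of the controls. A further label field calls the starved mice injected and the controls not injected, without saying with what, and groups were taken from the sample titles instead.

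The V-ATPase is a rotary motor. Its V1 sector, on the cytosolic side, splits ATP and turns a central rotor, and its V0 sector, in the membrane, carries protons into the lumen as the rotor drives a ring of proteolipid subunits. Lysosomal hydrolases need the acid that the pump makes, and the pump is also a docking site for the complexes that report amino acid supply to mTORC1, so it stands at the point where starvation and autophagy meet. TFEB and its relatives are known to act on many lysosomal genes through an E-box with the letters CACGTG, in a wider element usually called CLEAR.

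Before the values, the promoters show which members carry that E-box close to their start. Promoter sequences were taken from RefSeq (GRCm38.p6), 250 bases before to 50 after each annotated start, and 7 of the 10 members had one; Atp6v1b2, Atp6v1c1 and Atp6v1h did not. The letters CACGTG, which read the same on both strands, occurred in 4 of the 7: Atp6v0b, Atp6v0d1, Atp6v0e and Atp6v1a. The stretches around them are given 5′ to 3′ on the gene's strand, with CACGTG in capitals.
Atp6v0b, chr4:117887325-117887392, minus strand: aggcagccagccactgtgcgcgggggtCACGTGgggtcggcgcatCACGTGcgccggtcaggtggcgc
Atp6v0d1, chr8:105566045-105566094, minus strand: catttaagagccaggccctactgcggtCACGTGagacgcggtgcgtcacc
Atp6v0e, chr17:26676372-26676421, plus strand: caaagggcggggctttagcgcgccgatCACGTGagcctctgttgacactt
Atp6v1a, chr16:44139368-44139417, minus strand: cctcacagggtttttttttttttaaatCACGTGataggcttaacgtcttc

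Atp6v0b held the hexamer at 2 places, starting 36 and 18 bases before its start. In Atp6v0d1 it lay across the start itself, in Atp6v0e it began at base 4 of the transcript, and in Atp6v1a it began 131 bases before the start used. The annotated range of Atp6v1a extends to chr16:44139702, upstream of its site, so by that range the site lies inside the gene. Among all 32851 promoters in the table, 7.15% held CACGTG, and among the 9887 genes measured here that have a promoter sequence the share was 10.8%. The longer form TCACGTGA, which contains the hexamer, was in 3 members (Atp6v0d1, Atp6v0e and Atp6v1a) and in 0.974% of all promoters. It was in 1.76% of the measured genes with a promoter sequence and in 3 of 30 genes listed as lysosomal hydrolases. None of the 12 other V-ATPase subunit genes with a promoter in the table held CACGTG, and 11 of 30 genes listed as lysosomal hydrolases did. A match describes letters in a window and is not evidence of binding.

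**Figure D1:**
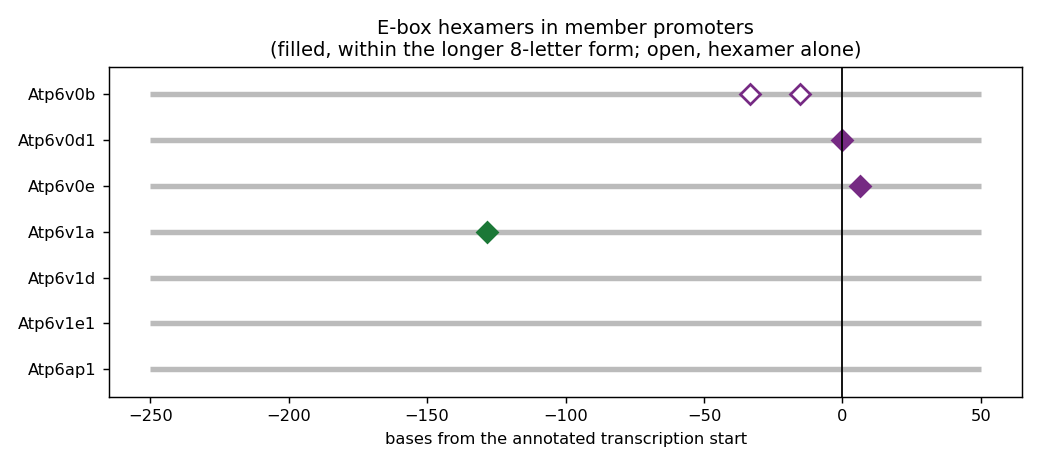
Position of CACGTG in the promoters of the 7 members with a sequence, in bases from the annotated start (grey bar, the 300 bases searched; vertical line, the start). Filled diamonds lie within TCACGTGA and open ones do not. The sites of Atp6v0b, Atp6v0d1 and Atp6v0e sit within 36 bases of the start, that of Atp6v1a 131 bases before it, and Atp6v1d, Atp6v1e1 and Atp6ap1 have 0.

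Values below are log2 RMA signals, 1 summary per probe set and array, and a change is the mean of the starved arrays less that of the control arrays, with its standard error. Medians of the arrays lay between 6.70 and 6.73, and the correlation over probe sets was 0.994 between the starved arrays, 0.992 between the control arrays and 0.986 to 0.991 between groups. The 3′ actin control probe set exceeded the 5′ one by 2.06 and 1.85 (log2) on the starved arrays and 1.79 and 1.76 on the control arrays. This gap, a gauge of RNA integrity, was larger on both starved arrays, and its part in the changes was not tested. Among the 7 measured hepatocyte genes, Alb, Ttr and Cps1 read at least 14.25 on every array, and Tat, with the lowest reading, at least 12.41. Control 2 stood apart in genes of inflammation: Lcn2, an iron-binding protein of neutrophils and of the acute phase, read 8.84 and 9.15 on the starved arrays, 9.35 on control 1 and 13.49 on control 2. Over the 5 measured neutrophil and monocyte markers the summed signal (log2) was 9.48 and 9.86 on the starved arrays and 9.85 and 13.57 on the control arrays, most of it from Lcn2. Without Lcn2 the other 4 markers summed to 7.99 and 8.50 on the starved arrays and 8.08 and 9.25 on the control arrays, and 3 of the 4 read highest on control 2. For 10 Kupffer cell and macrophage markers it was 13.05 and 13.16 on the starved arrays and 13.04 and 13.38 on the control arrays, and 8 of the 10 read highest on control 2. Control 2 had the lowest summed signal of 5 sinusoidal endothelium markers, at 11.13 and 10.83 on the starved arrays and 11.46 and 10.46 on the control arrays, and of 6 stellate cell markers, at 11.99 and 12.06 on the starved arrays and 12.39 and 11.48 on the control arrays. Of the single genes, 2 of the 5 and 3 of the 6 read lowest there. In bulk liver a change in the number of cells of a type and a change in RNA per cell cannot be told apart.

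None of the 10 genes changed past the test. Of the 21 probe sets, 0 passed an adjusted p of 0.05 in limma (adjusted p = 0.416 to 1), with 1 at an unadjusted p under 0.05, the Atp6v1a probe set 1422508_at. Over all probe sets 13 passed, which is 0.0575%, 4 of them higher (0.0177%) and 9 lower (0.0398%). An unadjusted p under 0.05 was found in 11.5% of all, and in the lower direction, that of the Atp6v1a probe set, in 6.04%. By sign 7 member probe sets were higher and 14 lower, against 50.8% and 49.2% of all probe sets. The changes ran from -0.29 to 0.31, and their median was -0.04, against 0.00 over all probe sets. The middle 90% of all probe sets spanned -0.41 to 0.39, and every member probe set lay inside it. Both starved arrays lay above both control arrays in 3 member probe sets (14.3%), which held for 21.3% of all probe sets, and below them in 6 (28.6%), which held for 20.6% of all.

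The intervals show how much change these arrays leave possible. All 21 of the 95% intervals lay between -1 and 1 on the log2 scale, so each excluded a 2-fold difference in signal, as did 94.3% of all probe sets. For 17 of 21 the interval also lay within a 1.5-fold difference in both directions, against 71.2% of all. The exceptions were 2 probe sets of Atp6v0b and 1 each of Atp6v1a and Atp6v1b2, chosen after their values were seen, and the widest bounds reached -0.69 and 0.78. Of the 18 member probe sets above the median signal, 18 lay within the 2-fold bounds and 14 within the 1.5-fold bounds. With no detection calls, a narrow interval at a low signal may not hold for the transcript. Probe sets of a gene read the same transcript on the same arrays and are not replicates of the condition.

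**Figure D2:**
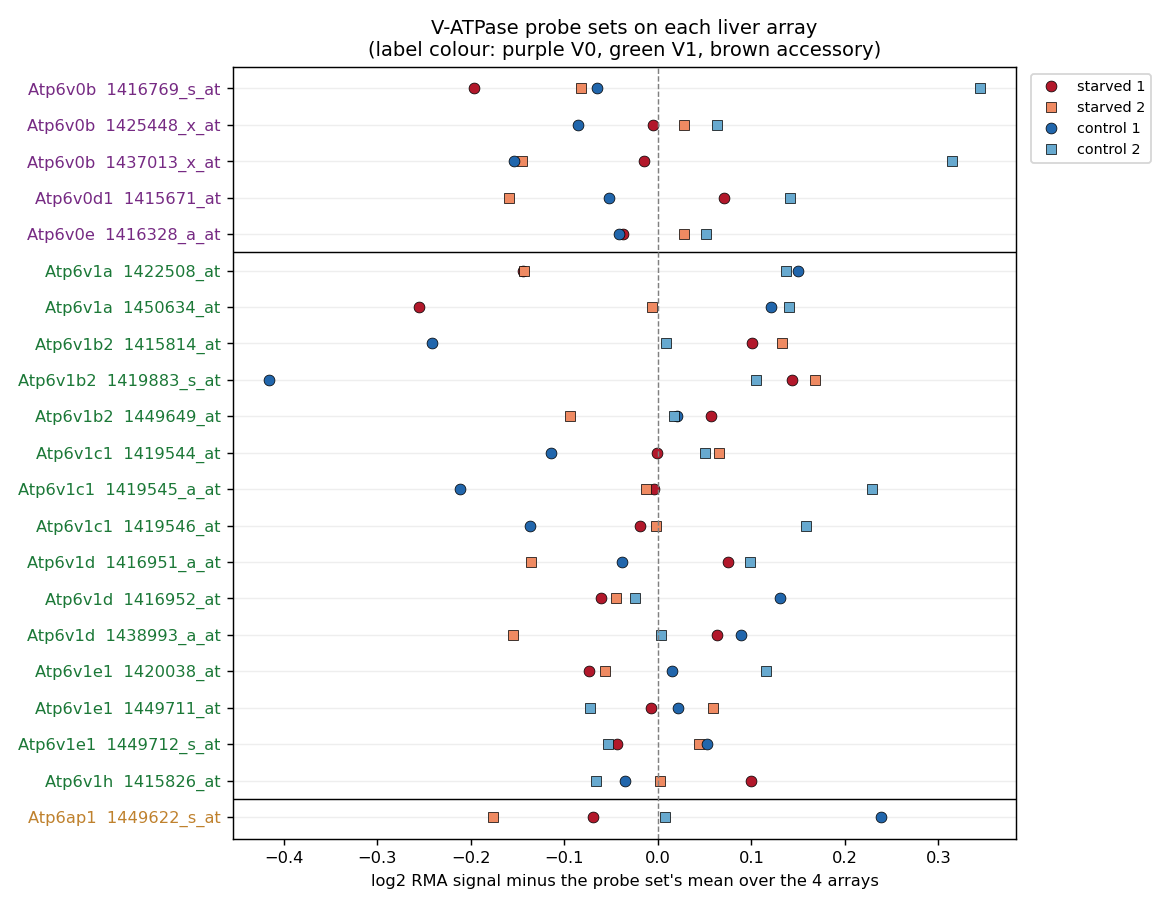
Log2 RMA signal of each member probe set on each array, minus that probe set's mean over the 4 arrays (x axis; rows are probe sets; red shades starved, blue shades control). For Atp6v1a both starved points lie left of both control points, overlapping each other at 1422508_at, for Atp6v1b2 they lie right of them in 2 of 3 rows, and in all 5 V0 rows control 2 is the point farthest to the right.

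Among V0 subunits, Atp6v0b encodes the c′′ proteolipid of the rotating ring. Its probe set with the highest signal, 1437013_x_at, read 8.98 and 8.85 in the starved livers and 8.84 and 9.31 in the control livers. The groups overlapped, since control 1 was the lowest of the 4 arrays and control 2 the highest. The change was -0.16 ± 0.18 (limma, adjusted p = 0.817), with a 95% interval of -0.60 to 0.28.

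A further Atp6v0b probe set, 1416769_s_at, read 6.78 and 6.90 in the starved livers and 6.92 and 7.33 in the control livers. Here both starved arrays lay below both control arrays, by 0.02 at the nearest pair, and the change of -0.28 ± 0.17 did not pass the test (limma, adjusted p = 0.594). It was -0.485 without control 1 and -0.074 without control 2. The remaining one, 1425448_x_at, had a change of 0.02 ± 0.12. Probe sets ending in _x_at or _s_at may hybridise to related transcripts, and all 3 Atp6v0b readings are of those types.

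Atp6v0d1 encodes subunit d, which couples the proteolipid ring to the central rotor. It read 10.32 and 10.09 in the starved livers and 10.20 and 10.39 in the control livers. The groups interleaved, and the change of -0.09 ± 0.14 had an interval of -0.44 to 0.26 (limma, adjusted p = 0.884).

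Atp6v0e encodes the small membrane subunit e. It read 10.19 and 10.25 in the starved livers and 10.18 and 10.28 in the control livers, so both starved values lay between the control values. The change was -0.01 ± 0.12, with an interval of -0.29 to 0.27 (limma, adjusted p = 0.994), and without the control 2 array it was 0.04. All 3 V0 member genes carry the E-box shown above.

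Among V1 subunits, Atp6v1a encodes subunit A, which holds the catalytic site for ATP. Probe set 1422508_at read 8.87 and 8.87 in the starved livers and 9.17 and 9.15 in the control livers. The starved values were lower than both control values, and each pair lay close together. The change of -0.29 ± 0.11 had an interval of -0.56 to -0.01 and an unadjusted p of 0.0421 in limma, but it did not pass over all probe sets (adjusted p = 0.416).

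The other Atp6v1a probe set, 1450634_at, read 9.28 and 9.53 in the starved livers and 9.66 and 9.68 in the control livers, again with both starved values below both control values. Its change was -0.26 ± 0.13 (limma, adjusted p = 0.523). Over the alternatives tried the changes of 1422508_at ran from -0.29 to -0.28 and those of 1450634_at from -0.39 to -0.14, the ends set by leaving out an array. Of the 3 V1 member genes with a promoter sequence 1 held the E-box, Atp6v1a.

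Atp6v1b2 encodes the B2 form of subunit B, which alternates with A in the head of the motor and binds nucleotide without being the main catalytic site. Probe set 1415814_at read 8.61 and 8.64 in the starved livers and 8.27 and 8.52 in the control livers. Both starved values were above both control values, and the change of 0.23 ± 0.13 did not pass (limma, adjusted p = 0.576). Probe set 1419883_s_at read 6.95 and 6.98 in the starved livers and 6.39 and 6.92 in the control livers.

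Most of that difference lay in control 1: the change of 0.31 ± 0.19 (limma, adjusted p = 0.60) was 0.05 without control 1 and 0.57 without control 2. For 1415814_at the same 2 fits gave 0.11 and 0.36. The last Atp6v1b2 probe set, 1449649_at, read 4.47 and 4.32 in the starved livers and 4.44 and 4.43 in the control livers, below the lower quartile of each array, and its change was -0.04 ± 0.12. With a gene's probe sets averaged before the fit, A and B2, which sit side by side in the head, had changes of opposite sign: -0.27 ± 0.10 for Atp6v1a (limma, adjusted p = 0.407) and 0.17 ± 0.12 for Atp6v1b2 (limma, adjusted p = 0.679). The difference between them was not tested.

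Atp6v1c1 encodes subunit C1, part of the stator and the subunit released when V1 comes off the membrane, as known from yeast. Its probe set with the highest signal, 1419545_a_at, read 9.52 and 9.51 in the starved livers and 9.31 and 9.75 in the control livers. Both starved values lay between the control values. The change was -0.02 ± 0.17, and it was -0.24 without control 1 and 0.20 without control 2. The other probe sets, 1419544_at and 1419546_at, had changes of 0.06 ± 0.12 and -0.02 ± 0.14.

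Atp6v1d encodes subunit D of the central rotor. Probe set 1416951_a_at read 10.56 and 10.35 in the starved livers and 10.45 and 10.58 in the control livers, with overlapping groups. Its change was -0.06 ± 0.13. Probe set 1416952_at read 9.32 and 9.34 in the starved livers and 9.51 and 9.36 in the control livers, with the starved values below by 0.02 at the nearest pair.

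Its change was -0.11 ± 0.12, and that of the third Atp6v1d probe set, 1438993_a_at, -0.09 ± 0.13. The 3 readings of Atp6v1d were thus all slightly negative and none passed the test (limma, adjusted p = 0.816 to 0.929).

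Atp6v1e1 encodes subunit E1 of the peripheral stalks that hold the head still. Its probe set with the highest signal, 1449712_s_at, read 10.86 and 10.94 in the starved livers and 10.95 and 10.85 in the control livers. The pairs were nearly the same, the change was 0.00 ± 0.12 and its interval was -0.29 to 0.29. The dimmer 1420038_at and 1449711_at had changes of -0.13 ± 0.11 and 0.05 ± 0.12.

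Atp6v1h encodes subunit H, which in yeast keeps the free V1 sector from splitting ATP. It read 10.03 and 9.93 in the starved livers and 9.89 and 9.86 in the control livers. Both starved values were above both control values, and the change was 0.10 ± 0.11, with an interval of -0.18 to 0.38 (limma, adjusted p = 0.817).

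The accessory subunit Atp6ap1, also called Ac45, helps the V0 sector to assemble in the endoplasmic reticulum. Its single probe set, 1449622_s_at, is of a type that may hybridise to related transcripts. That probe set read 9.77 and 9.67 in the starved livers and 10.08 and 9.85 in the control livers. The starved values were below both control values. The change of -0.25 ± 0.13 had an interval of -0.58 to 0.08 (limma, adjusted p = 0.553), and it was -0.36 without control 2 and -0.13 without control 1.

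**Figure D3:**
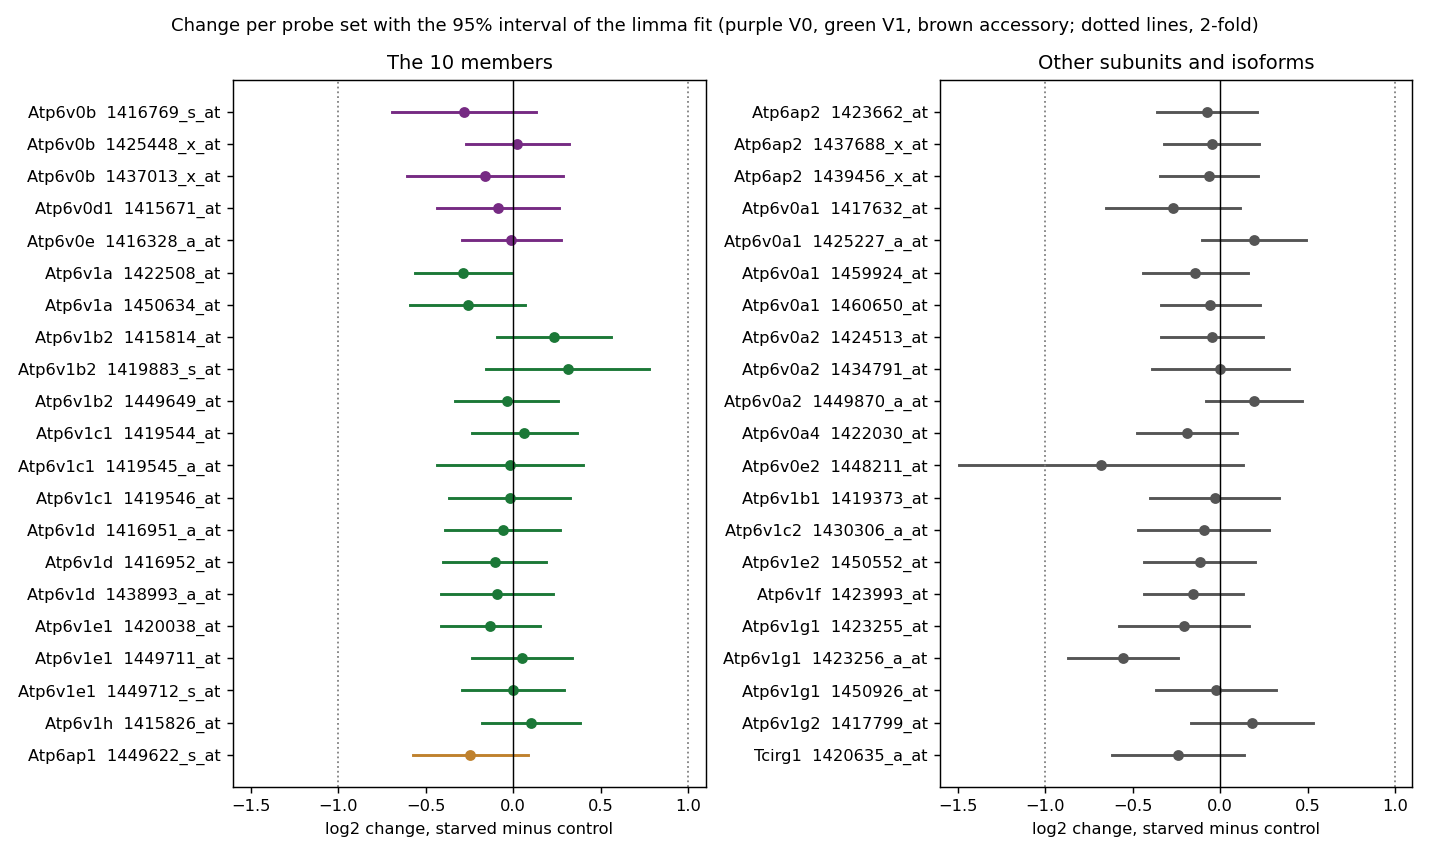
Log2 change, starved minus control, of each probe set with its 95% interval from limma, for the 10 member genes (left; purple V0, green V1, brown Atp6ap1) and for the other measured subunits and isoforms (right). All 21 member intervals stay inside the dotted 2-fold lines; the interval of Atp6v0e2 crosses the lower line, and that of Atp6v1g1 at 1423256_a_at lies below 0.

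Set side by side, the member probe sets of the sectors had medians close to 0. The other measured subunits, described below, are not part of these values. The median change was -0.09 over the 5 V0 probe sets and -0.02 over the 15 V1 probe sets, a gap of -0.07. By sign 1 of 5 V0 probe sets and 6 of 15 V1 probe sets were higher in starved liver. The V1 changes ran from -0.29 to 0.31 and those of the fewer V0 probe sets from -0.28 to 0.02. A range tends to widen with the number of readings. With 1 probe set per gene the medians were -0.09 for V0 and -0.01 for V1. The gap varied with the arrays used: it was -0.18 without starved 1, -0.06 without starved 2, -0.15 without control 1 and 0.03 without control 2, where the V0 median was 0.04 and the V1 median 0.00. With all 4 arrays but no _x_at or _s_at probe sets, which leaves 2 for V0, the gap was -0.01.

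All 5 V0 member probe sets read highest on control 2, as did 5 of 15 V1 member probe sets and 23.9% of all probe sets. These counts were made after the values were seen. Control 2 is also the array with the high inflammatory and macrophage markers described above, and their part in the V0 values was not tested. No p is given for V0 against V1, since probe sets are not replicates and 2 arrays against 2 allow no permutation p below 0.333.

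Of the other V-ATPase subunits and isoforms, 12 of 16 listed genes were measured, and Atp6v0c, Atp6v0d2, Atp6v1g3 and Atp6ap1l were not analysed here. With 1 probe set per gene, 0 of the 12 passed over all probe sets (limma), 1 had an unadjusted p under 0.05 (11.4% of all genes read this way did), and by sign 2 were higher and 10 lower, with a median of -0.13. Over all 21 probe sets of these genes the median was -0.07, with 4 higher and 17 lower. Both starved arrays lay below both control arrays in 7 of the 12 and above them in 0, which held for 20.9% and 21.4% of all genes. Over the 21 probe sets they lay below in 9 (42.9%) and above in 2 (9.52%), against 20.6% and 21.3% of all probe sets. The highest value was on control 2 in 9 of the 12, against 2910 of all 12393 genes read this way. Over the 21 probe sets it was there in 11, against 23.9% of all probe sets. Without control 2 the change was negative in 9 of the 12. For the 7 that lay below both control arrays that sign was fixed in advance, whichever array was left out.

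The gene with the smallest p was Atp6v1g1, whose subunit G1 pairs with E in the peripheral stalk. Its probe set 1423256_a_at read 10.91 and 10.91 in the starved livers and 11.36 and 11.57 in the control livers. The starved values were clearly below both control values, and the change was -0.56 ± 0.13, with an interval of -0.87 to -0.24 (limma, adjusted p = 0.220). It was -0.45 to -0.67 with 1 array left out. The other probe sets of the gene, 1423255_at and 1450926_at, had changes of -0.20 ± 0.15 and -0.02 ± 0.14.

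Atp6v0e2, the second form of subunit e, read 5.31 and 5.39 in the starved livers and 5.51 and 6.56 in the control livers. Its change of -0.68 ± 0.33 was the most negative of the measured subunits (limma, adjusted p = 0.50), and without control 2 it was -0.155. Subunit F, encoded by Atp6v1f and part of the central rotor with D, had a change of -0.15 ± 0.12. Atp6ap2, the second accessory subunit, also known as the prorenin receptor, had changes of -0.05 ± 0.11, -0.06 ± 0.11 and -0.07 ± 0.12 at its 3 probe sets.

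Subunit a, which lines the proton path and directs the pump to its membrane, comes in several forms. Tcirg1, the a3 form prominent in osteoclasts and macrophages, read 7.75 and 7.61 in the starved livers and 7.75 and 8.08 in the control livers, a change of -0.24 ± 0.15 that was -0.406 without control 1 and -0.076 without control 2. Atp6v0a1 had a change of -0.27 ± 0.16 at its brightest probe set, 1417632_at, which was -0.446 without control 1 and -0.093 without control 2. Its 3 other probe sets gave 0.19 ± 0.12, with both starved arrays above both control arrays (1425227_a_at), -0.14 ± 0.12 and -0.06 ± 0.11. Atp6v0a2 had a change of 0.00 ± 0.16 at its brightest probe set, with 0.19 ± 0.11 at 1449870_a_at and -0.05 ± 0.12 at 1424513_at. The forms known mainly from kidney, Atp6v0a4 and Atp6v1b1, read 4.14 to 4.58 on all arrays, below each array's lower quartile, with changes of -0.19 ± 0.12 and -0.03 ± 0.15. None of these passed the test (limma, adjusted p = 0.576 to 1).

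Factors that build or regulate the pump were read as a list of their own. Of 13 listed, 9 were measured and 0 passed (limma), with a median of -0.11. An unadjusted p under 0.05 was found for 1 of the 9, near the share of 11.4% over all genes. That gene was Tmem199, which with Ccdc115 takes part in assembling V0, and it read 7.60 and 7.22 in the starved livers and 7.80 and 7.89 in the control livers. Its change was -0.43 ± 0.16 (limma, adjusted p = 0.392). Ccdc115 itself had a change of 0.25 ± 0.12, the opposite sign, and Vma21, the chaperone of V0 in the endoplasmic reticulum, one of -0.15 ± 0.12.

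Genes that act beside the pump also had small changes. Of 13 measured genes of the Ragulator, Rag GTPase and mTORC1 machinery that meets the V-ATPase on the lysosome, 0 passed and 0 had an unadjusted p under 0.05 in limma, with a median of -0.07. The Ragulator subunits Lamtor5 and Lamtor2 had changes of -0.28 ± 0.12 and -0.29 ± 0.13, and Rheb, the GTPase that activates mTORC1, one of 0.21 ± 0.11. Of 10 lysosomal ion channels and exchangers, which balance the charge moved by the pump or release ions, 0 passed and 0 had an unadjusted p under 0.05. Their median was -0.09, with 2 higher and 8 lower by sign, and over all 20 of their probe sets it was 0.01, with 11 higher and 9 lower.

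Of 35 measured genes listed as lysosomal hydrolases, 0 passed (limma) and the median was -0.03. At an unadjusted p under 0.05 in limma, 1 was higher and 7 lower, against 5.31% and 6.05% of all genes. The list is not strict: Npc2 and Psap do not encode enzymes, and Gnpda1, among the 7 lower, encodes a cytosolic enzyme. Of 13 lysosomal membrane proteins 0 passed, 0 had an unadjusted p under 0.05, and the median was 0.08. Of 4 listed genes of the TFEB family 3 were measured, and Tfe3 was not analysed here. None of the 3 passed or had an unadjusted p under 0.05 (limma). The change was -0.12 ± 0.12 for Tfeb, 0.27 ± 0.15 for Mitf and 0.31 ± 0.20 for Tfec. These lists give counts and medians only, and no list was tested against another.

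The mitochondrial ATP synthase, a relative of the V-ATPase that runs as a generator, served as a further comparison. Of 16 measured genes 0 passed (limma) and the median was 0.02. Its 1 gene with an unadjusted p under 0.05 (limma), which 11.4% of all genes had, was Atpif1, the inhibitor of the synthase. Atpif1 read 8.12 and 8.68 in the starved livers and 9.21 and 9.19 in the control livers. The change was -0.79 ± 0.20 (limma, adjusted p = 0.246).

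**Figure D4:**
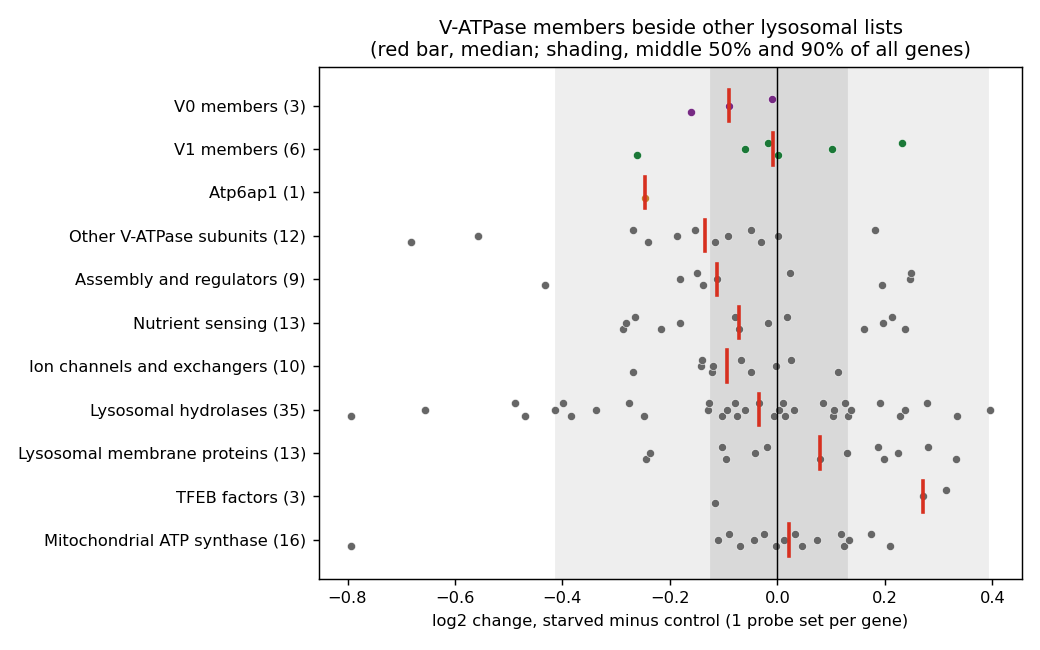
Log2 change, starved minus control, for 1 probe set per gene in the V-ATPase members and in the other lists (number of genes in brackets; red bar, median; dark and light shading, the middle 50% and 90% of all genes; vertical offsets within a row only separate points). The V0 and V1 medians of -0.09 and -0.01 lie in the middle 50% of all genes, and all 10 members lie within the middle 90%.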

How the data were processed

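Livers of 4 mice were profiled on an Affymetrix array, 1 array per mouse. The deposited values are log2 signals that the authors made with RMA in affy, per the submitters' processing notes; versions, settings and the set of arrays normalized together were not given in the sources used here. RMA aligns the arrays' distributions, so a shift shared by all transcripts cannot be seen, and with no detection calls a low signal is not read as absence.

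Of 22690 probe sets, 64 Affymetrix controls were left out. The other 22626 were fitted with lmFit and eBayes (limma 3.58.1, R 4.3.3), two-sided, without covariates, with Benjamini-Hochberg adjustment over all of them and a threshold of 0.05; intervals come from the same fit. The number of arrays limits the precision, and the median SE of a log2 change was 0.133. In the platform annotation 20380 probe sets had 1 symbol, 691 several and 1555 none, and for 20351 the symbol was taken anew from a RefSeq table by Entrez ID.

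Every member probe set is described. Other lists use 1 probe set per gene, that with the highest mean, and name at most 4 genes by smallest p. Any gene may be named for the remaining subunits and the assembly factors. The hepatocyte genes, and genes named only to describe the hydrolase list, were not chosen by p. Members, lists and tests were chosen with earlier results of these data known. Alternatives were other scalings, a low-signal filter, gene-level values, removal of _x_at and _s_at probe sets, trend and robust settings, a replicate block, a threshold of 0.01 and each array left out.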

Additional observations from a re-analysis of the deposited data

How the results depend on the processing

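The count of 0 member probe sets past the test was the same under every alternative that kept all 4 arrays. The smallest member adjusted p lay between 0.345 and 0.524 there (limma), with 0 to 1 at an unadjusted p under 0.05. At the stricter threshold of 0.01 a count of 0 was certain, since 0 passed at 0.05. Over everything tested the count of 13 was 8 with 1 probe set per gene, 23 without _x_at and _s_at probe sets, 59 with trend and robust settings, 0 with the replicate number as a block (limma, 2534 at an unadjusted p under 0.05), 0 at a threshold of 0.01, and 2 to 57 with 1 array left out (2 without starved 1, 18 without starved 2, 57 without control 1 and 17 without control 2). The labels do not say that a number pairs animals, and deviations of same-numbered arrays correlated at 0.038. Where 1 array was left out, its group's lone array was taken to vary as the other group did. The V1 median of -0.02 was -0.007 after a further quantile normalization, -0.008 with 1 probe set per gene and -0.037 without _x_at and _s_at probe sets. The gap of -0.07 between V0 and V1 was -0.012 without _x_at and _s_at probe sets, which leaves 2 V0 probe sets. With each array left out, the member median ran from -0.098 to 0.007, the V0 median from -0.204 to 0.036, the V1 median from -0.035 to 0.017 and the gap between them from -0.183 to 0.032. The signal filter, the removal or choice of probe sets, the trend and robust settings and the replicate block leave a probe set's change as it was. Refits of those kinds could not reverse a sign but count among the 212 refitted changes of single member probe sets. Of the 212, 17 had the opposite sign. They were -0.001 for 1449712_s_at of Atp6v1e1 with arrays shifted to a common median and 0.019 for Atp6v0e after quantile normalization. The others came with an array left out. Those ranges were -0.053 to 0.097 (1425448_x_at) and -0.394 to 0.074 (1437013_x_at) for Atp6v0b, -0.204 to 0.026 for Atp6v0d1, -0.056 to 0.036 for Atp6v0e, -0.113 to 0.038 for Atp6v1b2 (1449649_at), -0.018 to 0.146, -0.237 to 0.203 and -0.168 to 0.127 for Atp6v1c1, -0.166 to 0.045 (1416951_a_at) and -0.202 to 0.017 (1438993_a_at) for Atp6v1d, and -0.053 to 0.053 for 1449712_s_at of Atp6v1e1. With an array left out, other members kept their sign but ranged widely: -0.485 to -0.074 (1416769_s_at of Atp6v0b), -0.184 to -0.029 (1416952_at of Atp6v1d), -0.18 to -0.081 (1420038_at) and 0.004 to 0.099 (1449711_at) for Atp6v1e1, and 0.053 to 0.15 for Atp6v1h. Why an array moved these values was not tested.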
